A study of Mus musculus with 5 samples.

Results

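The 8 Sox transcription factors Sox2, Sox4, Sox5, Sox6, Sox8, Sox9, Sox11 and Sox12 were followed across 5 cultures of mouse embryonic fibroblasts (MEFs, connective-tissue cells grown from embryos). Each member was found by its symbol in the deposited gene tables. All 8 had a locus that named no other gene, among 21372 genes with such a locus, and 12 further genes of the Sox family were measured. The members were chosen by their scaled levels in these same 5 libraries, so those levels and the ratios between them are a description and carry no test.

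The libraries were M, P, MP, EV and WT, 1 library each. M, P, MP and EV were Prep1-hypomorphic lines, whose Prep1 allele is expressed at a reduced level: M was made to overexpress Meis1, P to overexpress Prep1, MP to overexpress both, and EV had been infected with an empty vector. WT was a Prep1 wild-type line, with no vector named in its label. All cells were C57BL/6, taken from E14.5 embryos and cultured to passage 30. The growth protocol attached to WT is the same text as for the other libraries and names hypomorphic embryos. The promoter that drives the added factors, the number of clones and the number of embryos are not stated in the labels. With 1 library per group no difference has a replicate check, each comparison is between libraries, and read depth is unknown.

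Sox proteins share a DNA-binding domain, the HMG box, which binds the minor groove of DNA and bends it, and they usually act with a partner factor bound next to them. Subgroups are named by sequence: SoxB1 (here Sox2) keeps embryonic stem cells and neural progenitors undifferentiated, SoxC (Sox4, Sox11, Sox12) acts in progenitor cells of neurons and mesenchyme, SoxD (Sox5, Sox6) and SoxE (Sox8, Sox9) act together in cartilage, where Sox9 is the leading regulator. In embryonic mesenchyme, the tissue fibroblasts come from, Sox4, Sox9 and Sox11 are commonly expressed, whereas Sox2 is better known from stem cells, neural tissue and certain epithelia. Meis1 and Prep1 are homeobox proteins of the TALE class, which bind DNA with Pbx partners.

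Levels are given in scaled units. Each library's FPKM (fragments per kilobase of transcript, relative to the mapped total) was scaled so that its upper quartile, over single-gene loci at 1 FPKM or more in any library, stands at 10 units. The scaling was needed because that quartile was 429 FPKM in M and 157 in EV, while P had 11.6, MP 9.63 and WT 12.2. FPKM is per length, which lets levels of different genes be set side by side, but only roughly here. The 99th percentile of genes stood at only 1.78 (WT) to 2.12 (EV) upper quartiles, which compresses differences between well-expressed genes. Shares of a summed level and percents of another gene's level are therefore approximate. The libraries also differed at genes that fibroblasts should not use: 70.0% of 1422 olfactory and vomeronasal receptor genes (Olfr and Vmn, of sensory neurons in the nose) were above 0 in M and 99.9% in EV, while P had 10.9%, MP 12.7% and WT 17.1%. The 99th percentile of these receptor genes was 1.39 units in M, 0.341 in P, 0.313 in MP, 0.868 in EV and 0.369 in WT, and it serves below as the mark against which low Sox levels are read.

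As a check of the labels, Meis1 stood at 16.8 units in M, 8.86 in P, 15.4 in MP, 8.32 in EV and 12.4 in WT, so M and MP stood above EV and P as labelled, with WT between them. Pknox1, the gene of Prep1, stood at 3.25 units in M, 0.554 in P, 0.569 in MP, 2.16 in EV and 11.0 in WT. It was therefore low in the hypomorphic EV line but lowest in the libraries labelled P and MP, which goes against those labels, and each direction drawn from either library carries that limit. The fibroblast label was borne by its markers: of 14, 12 stood at 1 unit or more in M, P, MP and EV and 14 in WT, with Col1a2, a chain of type I collagen, between 17.6 and 22.3 units. The skeletal muscle factors Myod1 and Myog were at or under 0.299 units in each library, and the epithelial genes Epcam and Cdh1 at or under 0.326. Other markers of those lists were higher: Acta1, the skeletal muscle actin, stood at 0.897 units in M, 5.10 in P, 1.78 in MP, 1.41 in EV and 2.96 in WT, and Trp63, a factor of basal epithelium, between 0.379 in P and 2.21 in WT.

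The stretch of genome just before the transcription start is printed for Sox2, Sox11 and Sox12, which were 2-fold apart in comparisons described below, because the study concerns factors that bind short DNA sites. Sox5 was also 2-fold apart in EV, P and MP over WT, but its window, which holds no TGACAG, is not printed. The sequences are from RefSeq, build GRCm38.p6, and cover the 250 bases upstream of the annotated start, 5′ to 3′ on the strand of the gene. They lie at chr3:34649745-34649994 on the plus strand for Sox2, chr12:27342719-27342968 on the minus strand for Sox11 and chr2:152398047-152398296 on the minus strand for Sox12. Capitals mark an exact match to TGACAG, the core that Meis and Prep proteins bind.
Sox2: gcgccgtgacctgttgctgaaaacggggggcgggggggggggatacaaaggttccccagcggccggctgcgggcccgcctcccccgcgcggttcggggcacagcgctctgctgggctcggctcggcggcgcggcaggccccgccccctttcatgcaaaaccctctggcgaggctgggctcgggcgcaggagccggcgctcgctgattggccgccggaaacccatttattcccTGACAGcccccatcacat
Sox11: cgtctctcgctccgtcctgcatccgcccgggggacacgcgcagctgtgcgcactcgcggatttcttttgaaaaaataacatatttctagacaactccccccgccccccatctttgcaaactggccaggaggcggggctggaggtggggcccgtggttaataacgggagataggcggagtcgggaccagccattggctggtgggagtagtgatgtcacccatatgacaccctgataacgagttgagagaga
Sox12: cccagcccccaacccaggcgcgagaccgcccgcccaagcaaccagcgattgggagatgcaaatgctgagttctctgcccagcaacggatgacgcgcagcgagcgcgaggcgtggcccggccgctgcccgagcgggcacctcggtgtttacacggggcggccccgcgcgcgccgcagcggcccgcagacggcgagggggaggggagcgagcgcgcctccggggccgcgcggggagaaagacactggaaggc
The Sox2 window holds TGACAG once, with its first base 18 bases before the start. Windows were found for 7 of the 8 members. Of their 12 windows (Sox6 has several starts), 3 held TGACAG on either strand, 1 at Sox2 and the others at Sox6, whereas 15.9% of all 32851 windows held it. None of the 12 held TGACTCA, the site of the AP-1 dimer, which 4.46% of all windows held. AACAAT, a core bound by Sox proteins, was in 1 of the 12, at Sox6, and in 9.42% of all windows. G and C made up 72% of the Sox2 window, 58% at Sox11 and 74.4% at Sox12. These matches describe letters, not bound sites.

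**Figure D1:**
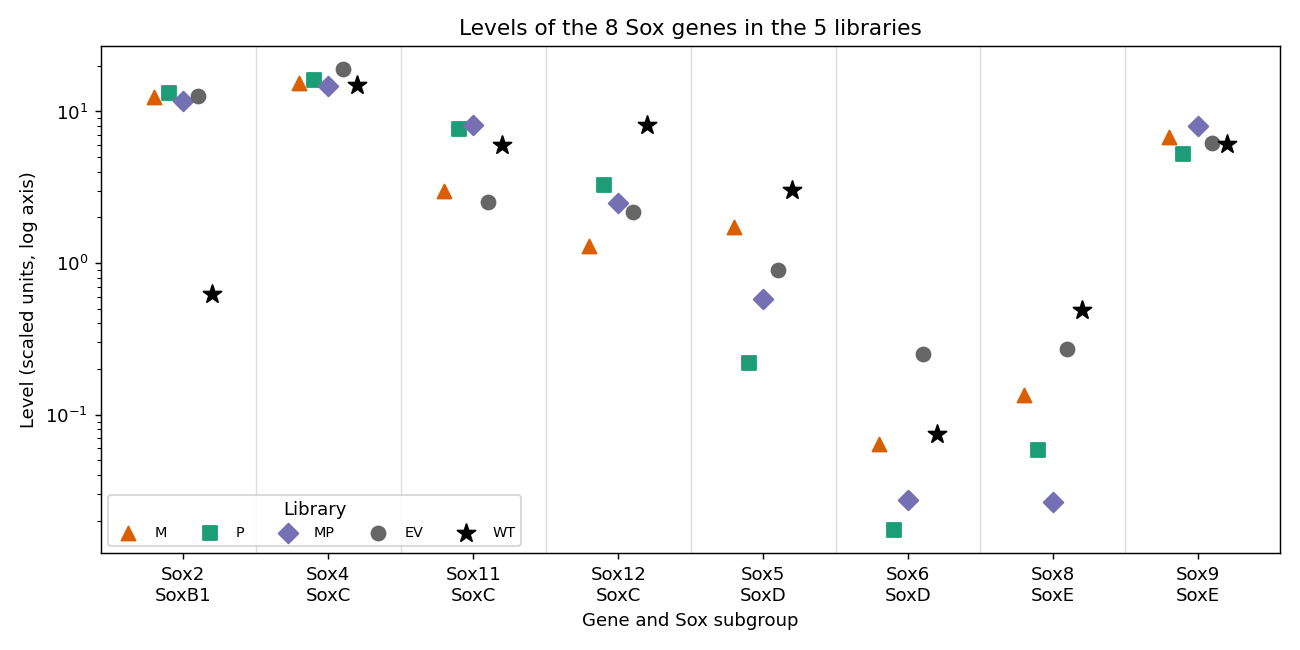
Level of each Sox gene in scaled units on a log axis, with 1 symbol per library (M, P, MP, EV, WT) and the genes ordered by subgroup. Sox2 lies between 11.8 and 13.3 units in the 4 hypomorphic libraries and at 0.629 in WT, whereas Sox4 and Sox9 lie close together in all 5.

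Sox2, the SoxB1 factor that keeps embryonic stem cells pluripotent, showed the widest difference. It stood at 12.5 units in M, 13.3 in P, 11.8 in MP, 12.7 in EV, against 0.629 in WT. The 4 hypomorphic libraries lay close together and far above WT, where the level was still above the 99th percentile of the receptor genes. EV was thus 20.1-fold above WT (log2((level + 1)/(level + 1)) 3.07, a scale used for all ratios below and one that understates changes of low genes), and M, P and MP were 19.9-fold, 21.1-fold and 18.7-fold above it. Among the 11866 genes at 1 unit or more in any library, Sox2 ranked at percentile 69.7 in M, 84.9 in P, 63.6 in MP, 68.7 in EV, but 4.63 in WT. The 4 hypomorphic levels lie in the compressed part of the scale, where well-expressed genes differ little. Their closeness is therefore not read as equal expression. In RNA from whole cultures, fewer cells with Sox2 and less Sox2 RNA per cell cannot be told apart. Prep1 genotype, line of origin and infection also cannot be told apart between WT and the rest.

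The Sox2 gene lies inside Sox2ot, a long non-coding RNA gene on the same strand. Sox2ot was measured as a locus joined with Mir1897 (XLOC_031793), at 0.642 units in M, 0.738 in P, 0.554 in MP, 1.23 in EV, against 0.140 in WT. It too was lowest in WT and 8.79-fold higher in EV than in WT, but its level was between 4.70% and 9.69% of that of Sox2 in the hypomorphic libraries. Its levels in WT and M were under the receptor genes' 99th percentile of 0.369 and 1.39. The fold over WT thus rests on a value that cannot be told from background. Among the 3 genes whose levels over the 5 libraries lay nearest to Sox2, by the Euclidean distance between log2(level + 1) values, were Klhl13 (distance 0.54) and Bicd1 (0.58), against a median distance of 3.00 over 9038 genes at 5 units or more in any library (predicted and small RNA genes left out). Genes picked as nearest lie under the median by that choice, here and for the members below, so the medians only give the scale. Klhl13, a substrate adaptor of a ubiquitin ligase, stood at 11.6 units in M, 10.1 in P, 12.1 in MP, 10.9 in EV, against 0.309 in WT. Bicd1, an adaptor of the dynein motor, stood at 11.3 units in EV, against 0.463 in WT. The high levels of both genes also lie in the compressed part of the scale. Klhl13 in WT was under the receptor genes' 99th percentile of 0.369 and cannot be told from background.

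Other genes of the stem cell circuit did not share that level. Pou5f1, which encodes Oct4, the usual partner of Sox2, was at 0.334 units in M, 0.224 in P, 0.0798 in MP, 0.592 in EV, against 0.174 in WT. Each of these values is under the receptor genes' 99th percentile in its library. Of 16 partners and targets of Sox2 in pluripotent cells, Nanog and Klf4 passed the minimum of 1 unit in EV or WT. Klf4, a zinc-finger factor also used in differentiated cells, ran the other way, at 3.84 units in EV against 10.3 in WT (log2 -1.23), and Nanog stood at 1.80 against 1.48 (0.17). The remaining 14 were under 1 unit in each of the 5 libraries. Among 13 neural progenitor genes, Nes, the intermediate filament gene nestin, stood at 16.7 units in EV and 11.4 in WT (log2 0.51), whereas Notch1, a receptor of progenitor cells (0.825 and 4.58, log2 -1.61), and Msi1, an RNA-binding protein of neural stem cells (0.356 and 3.08, log2 -1.59), were lower in EV. Both EV values were under the receptor genes' 99th percentile of 0.868 in EV, so the size of these 2 ratios rests on values that cannot be told from background. Pax6, Fabp7, Olig2 and Hes5, further genes of neural progenitors, were at or under 0.335 units in each library.

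**Figure D2:**
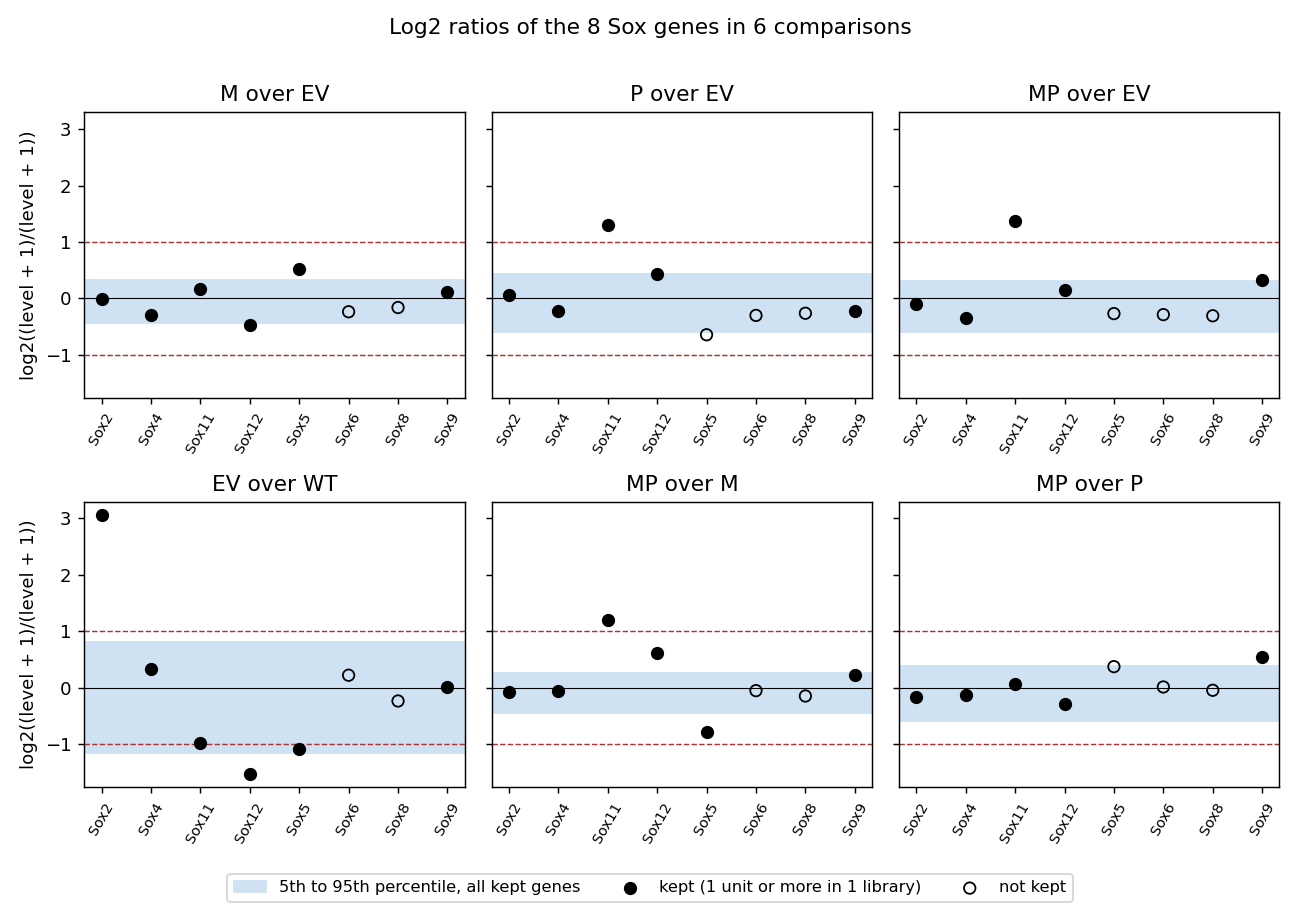
Log2 ratio of each Sox gene in 6 comparisons, filled where the gene reached 1 unit in 1 of the 2 libraries. The shaded band covers the 5th to 95th percentile of all kept genes and the dashed lines mark 2-fold on this scale. Sox11 lies above 1 in P over EV, MP over EV and MP over M, and Sox2 at 3.07 in EV over WT.

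The SoxC genes differed in level and in pattern. Sox4, which acts in progenitor cells of many tissues, was the highest Sox gene in each library, at 15.3 units in M, 16.2 in P, 14.8 in MP, 19.1 in EV and 15.0 in WT. The highest of these was 1.29 times the lowest, and no pair of libraries was 2-fold apart. Its percentile ran between 85.5 in MP and 96.6 in EV. That is near the compressed top of the scale, where a 2-fold rise has little room.

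Sox11, a factor of immature neurons and embryonic mesenchyme, stood at 2.98 units in M, 7.68 in P, 8.13 in MP, 2.53 in EV and 5.97 in WT. M and EV formed a low pair, and P, MP and WT stood higher. The share of all genes that split in this way was not counted. P was 3.04-fold and MP 3.21-fold above EV (log2 1.30 and 1.37), and MP was 2.73-fold above M (log2 1.20). Added Meis1 gave little difference at this gene, with M over EV at log2 0.17 and MP over P at 0.07. The low pair is also the pair with the high deposited level and the receptor signal, and the library labelled P and the library labelled MP had the least Pknox1, so the Prep1 label cannot be told apart from whatever else separates M and EV from P and MP. WT was 2.36-fold above EV by plain levels, while EV over WT was at log2 -0.98, just short of 2-fold on the log2 scale used here. Nearest to Sox11 in pattern were Dact1, a modulator of Wnt signalling (distance 0.64), Id4, an inhibitor of bHLH factors (0.68), and Dlk2 (0.71), against a median of 2.72 over 9038 genes. Dact1 stood at 3.45 units in M, 6.97 in P, 5.48 in MP, 1.96 in EV and 4.85 in WT.

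Sox12, the SoxC gene with the weakest activating domain and a wide, low expression in embryos, stood at 1.29 units in M, 3.28 in P, 2.50 in MP, 2.17 in EV, against 8.16 in WT. WT lay above each hypomorphic library. The M value lies under the receptor genes' 99th percentile of 1.39 in that library. WT was 6.32-fold above M, 2.49-fold above P, 3.26-fold above MP and 3.76-fold above EV, and the log2 ratios over WT were -2.00 (M), -1.10 (P), -1.39 (MP) and -1.53 (EV). The nearest genes in pattern were Mark1, a kinase of microtubule-binding proteins (distance 0.26), Gprin3 (0.37) and Ss18l1 (0.39), against a median of 3.94. Mark1 stood at 1.47 units in M, 3.48 in P, 2.43 in MP, 1.72 in EV, against 8.16 in WT.

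Summed over the 3 SoxC genes, the level was 19.6 units in M, 27.2 in P, 25.4 in MP, 23.8 in EV and 29.1 in WT. Sox4 made up 80.2% of that sum in EV and 51.5% in WT, where Sox12 made up 28.0%, against 9.13% in EV. In P and MP, Sox11 made up 28.3% and 32.0%, against 10.7% in EV. Of 8 genes linked to SoxC factors, 5 were kept in each of the 6 plotted comparisons and none was 2-fold apart there. Among all kept genes, 103 of 11144 were 2-fold apart in M over EV and 1109 of 11656 in EV over WT. Map2, Dbn1, Tead2 and Marcksl1 stood between 10.9 units (Marcksl1 in WT) and 17.2 (Tead2 in EV). That is in the compressed part of the scale, where a 2-fold difference has little room, so nothing is read from this count. Tubb3, a neuronal tubulin known as a Sox4 and Sox11 target in mouse neurons, stood at 5.05 units in M, 9.23 in P, 7.54 in MP, 6.50 in EV and 12.0 in WT, so that its lowest level was in M and its highest in WT, and M over WT was past 2-fold (log2 -1.10). Tead2, another such target in mouse mesenchyme, stood between 12.9 units in WT and 17.2 in EV. Dcx, a marker of young neurons, was under 0.46 units in each library.

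The SoxD and SoxE genes act with each other in cartilage, and here Sox9 alone of the 4 was well above the receptor genes in each library. Sox9 stood at 6.78 units in M, 5.21 in P, 8.05 in MP, 6.21 in EV and 6.11 in WT. The values lay within 1.54-fold of each other, with MP highest and P lowest. Sox5 stood at 1.73 units in M, 0.219 in P, 0.580 in MP, 0.904 in EV, against 3.05 in WT. WT was highest and P lowest, and the P value lies under the receptor genes' 99th percentile in that library. EV over WT was at log2 -1.09, P over WT at -1.73, MP over WT at -1.36 and M over WT at -0.57. The EV ratio is close to the 2-fold line and fell short of it under other scalings, at -0.84 with median scaling, where the median of all kept genes is 0.37, and -0.96 with quantile normalisation. The nearest genes to Sox5 were Rcan2 (distance 0.90), Serpinb1a (0.95) and Dpt (0.97), with a median distance of 5.84. Sox5 itself did not reach the 5 units asked of the genes compared, so genes at its own level were left out. Its distances therefore cannot be set against those of Sox2, Sox11 and Sox12.

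Sox6, and Sox8 outside WT, were at the level of silent genes. Sox6 stood at 0.0643 units in M, 0.0174 in P, 0.0275 in MP, 0.253 in EV and 0.0745 in WT, and each value was under the receptor genes' 99th percentile of its library. Sox8 stood at 0.136 units in M, 0.0587 in P, 0.0266 in MP, 0.270 in EV, likewise under it, and at 0.494 in WT, above it. Neither gene reached 1 unit in any library. No direction is read from such levels.

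Cartilage genes bound by Sox9, Sox5 and Sox6 showed no common direction. Of 18, 16 had a locus of their own, 6 were kept in EV over WT, 1 of these was at least 2-fold higher and 2 were lower, and their median log2 ratio was -0.34, against 0.07 over all kept genes. Acan, the cartilage proteoglycan aggrecan, stood at 1.02 units in M, 9.83 in P, 4.83 in MP, 5.42 in EV, against 0.0254 in WT. Acan was the 1 gene of the list that was 2-fold apart in M over EV (log2 -1.67) and in MP over M (1.53). Col2a1, the type II collagen that defines cartilage, was at 0.243 units in M, 0.344 in P, 0.418 in MP, 0.229 in EV, against 2.22 in WT (EV over WT, log2 -1.39). Col27a1, a fibrillar collagen of cartilage, was lower in EV as well, at 0.653 units against 3.82 in WT (-1.54). Col11a1 stood between 11.8 units in WT and 14.9 in MP. Acan and Col2a1 differed in opposite directions in EV over WT, while Sox9 itself differed little. Sox5 was highest in WT, as was Col2a1, whereas Acan was lowest there. Acan in M and WT, and Col2a1 and Col27a1 in M and EV, lay under the receptor genes' mark. That mark was 1.39 units in M, 0.868 in EV and 0.369 in WT. Such values cannot be told from background, and the ratios given for these genes rest on them. The part of Sox9 or Sox5 in these differences was not tested.

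Counts of members were read against all genes. In M over EV none of the 6 kept members was at least 2-fold apart, against 0.924% of 11144 genes. In P over EV 1 of 5 kept members (Sox11) was higher, against 0.654% of 11163 genes, and in MP over EV 1 of 5 (Sox11), against 0.208% of 11034. In EV over WT 1 of 6 (Sox2) was higher, against 3.2% of 11656 genes, and 2 of 6 (Sox5 and Sox12) were lower, against 6.31%. In MP over M 1 of 6 (Sox11) was higher, against 0.23% of 10855 genes, and in MP over P none of 5 was 2-fold apart, against 1.01% of 10771. Sox2 was at least 2-fold above WT in each of the 4 hypomorphic libraries, as were 0.961% of 11866 genes, and Sox12 at least 2-fold below WT in each, as were 4.29%. Because the members were chosen by these values, nothing is read from these shares.

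M over EV and MP over P share no library and both carry the label of added Meis1, and each pair lies on 1 side of the split in deposited level, although M and EV themselves differ in it. The 5 members kept in both pairs pointed the same way in each: Sox12 was lower (log2 -0.47 and -0.29), Sox4 lower (-0.30 and -0.13), Sox2 lower (-0.02 and -0.16), Sox9 higher (0.11 and 0.54) and Sox11 higher (0.17 and 0.07). These directions depend on the scaling. With median scaling, which moves the median of all kept genes in MP over P to 0.40, against 0.04 here, 3 of the 5 pointed the same way: Sox4 was at -0.24 and 0.25, Sox12 at -0.43 and 0.0037, and Sox2 was higher in both (0.04 and 0.21). With quantile normalisation 4 of 5 did, without Sox2 (0.01 and -0.27). Over all 10586 genes kept in both pairs, 56.8% pointed the same way. Sox5 was also higher in both (0.52 and 0.37), although it was under 1 unit in P and MP. None of these differences reached 2-fold, and with 1 library each their error is unknown. Sox12 in M was under the receptor genes' 99th percentile of 1.39 there, so its M over EV value rests on a level that cannot be told from background.

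P over EV and MP over M likewise share no library and carry the label of added Prep1. Sox11 was at least 2-fold higher in both pairs, as were 0.0936% of 10689 genes, which is 10 genes with Sox11 and Sort1 among them. Sox12 was higher in both (log2 0.43 and 0.61) and Sox5 lower in both (-0.64 and -0.79), although Sox5 was under 1 unit in P and EV. The Sox12 level in M was under the receptor genes' 99th percentile of 1.39 there, so its MP over M value rests on a level that cannot be told from background. Of the 5 members kept in both pairs 3 pointed the same way, and 54.9% of all genes did. With median scaling 3 of 5 did as well, but with Sox2 (0.10 and 0.27) in place of Sox4 (-0.18 and 0.31).

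**Figure D3:**
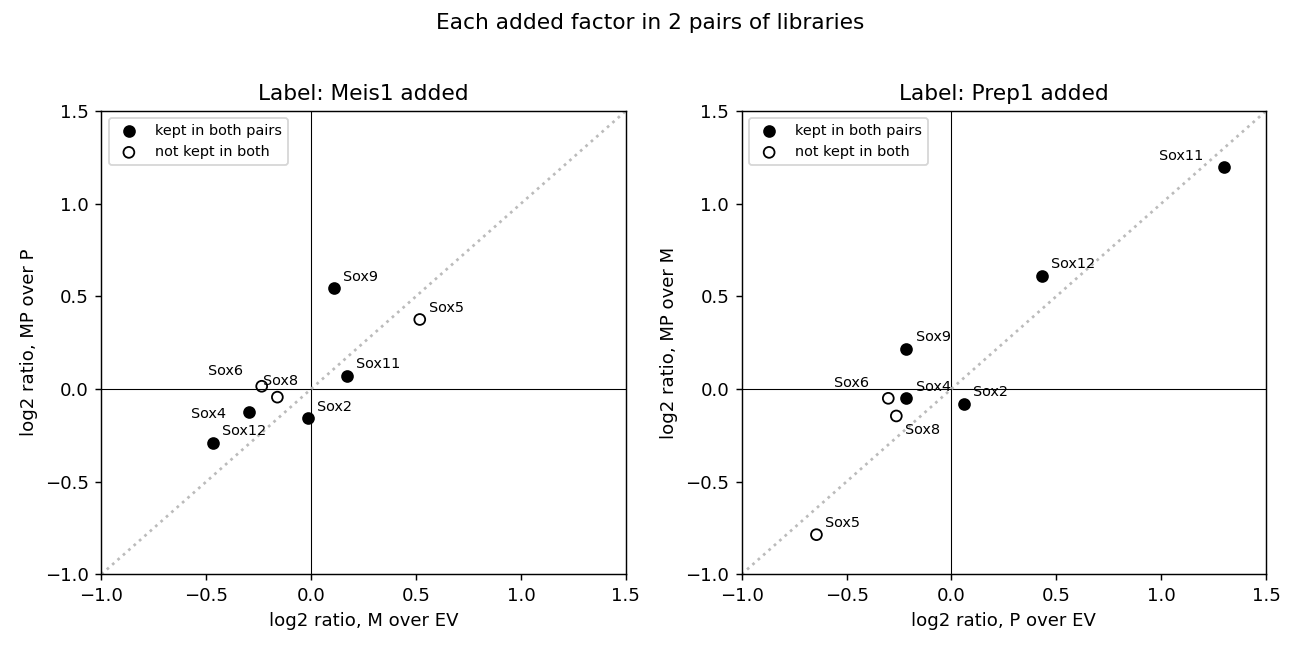
Log2 ratios of the 8 Sox genes for each added factor, with the pair that lacks the other factor on the x axis and the pair that carries it on the y axis. The dotted line marks equal ratios and open circles are genes not kept in both pairs. Sox11 lies at 1.30 and 1.20 for the Prep1 label and near 0 for the Meis1 label.

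The authors' deposited tables compare the libraries without this scaling. In the authors' deposited table of M against EV none of the 8 members was marked significant, against 4.4% of 22894 single-gene loci. The lowest q among the members there was 0.150, for Sox11, while Sox5 and Sox9 had a failed test and Sox6 and Sox8 were not tested. A completed test was thus listed for 4 of the 8. In the tables the authors deposited, members marked significant numbered 5 in P against EV, 5 in MP against EV and 7 in WT against EV, beside 43.3%, 41.2% and 44.6% of loci, and each of them was lower than EV. Those were all the members with a completed test in these tables, whereas the percents are over all single-gene loci, tested or not. Where both values were at least 5 FPKM, the median log2 ratio to EV in the authors' deposited tables, without a pseudocount, was 1.39 in the M table, -3.96 in the P table, -4.01 in the MP table and -3.93 in the WT table. Against that shift, Sox11 was at -2.30 in P and -2.31 in MP, Sox12 at -1.95 in WT and Sox2 at -8.19 in WT, by the FPKM values in the authors' deposited tables. These directions of P, MP and WT against EV give the shift of whole libraries as well as the gene.

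Of the 12 other genes of the Sox family, Sox13 alone reached 1 unit in any library. Sox13, a SoxD factor known from T cells and vessels, stood at 2.40 units in M, 3.12 in P, 1.96 in MP, 4.61 in EV, against 0.0919 in WT. It was above the receptor genes' 99th percentile in each hypomorphic library and under it in WT, and EV over WT was at log2 2.36. Sox15, a SoxG gene, stood between 0.273 units in MP and 0.573 in P. The endothelial SoxF genes Sox7, Sox17 and Sox18, the neural SoxB genes Sox1, Sox3, Sox14 and Sox21, and Sox10, the SoxE gene of neural crest and Schwann cells, were under the 99th percentile of the receptor genes in each library. In WT 6 of these 12 genes were listed at 0, in P 7, in MP 5, and in M and EV 1, which was Sry in both.

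**Figure D4:**
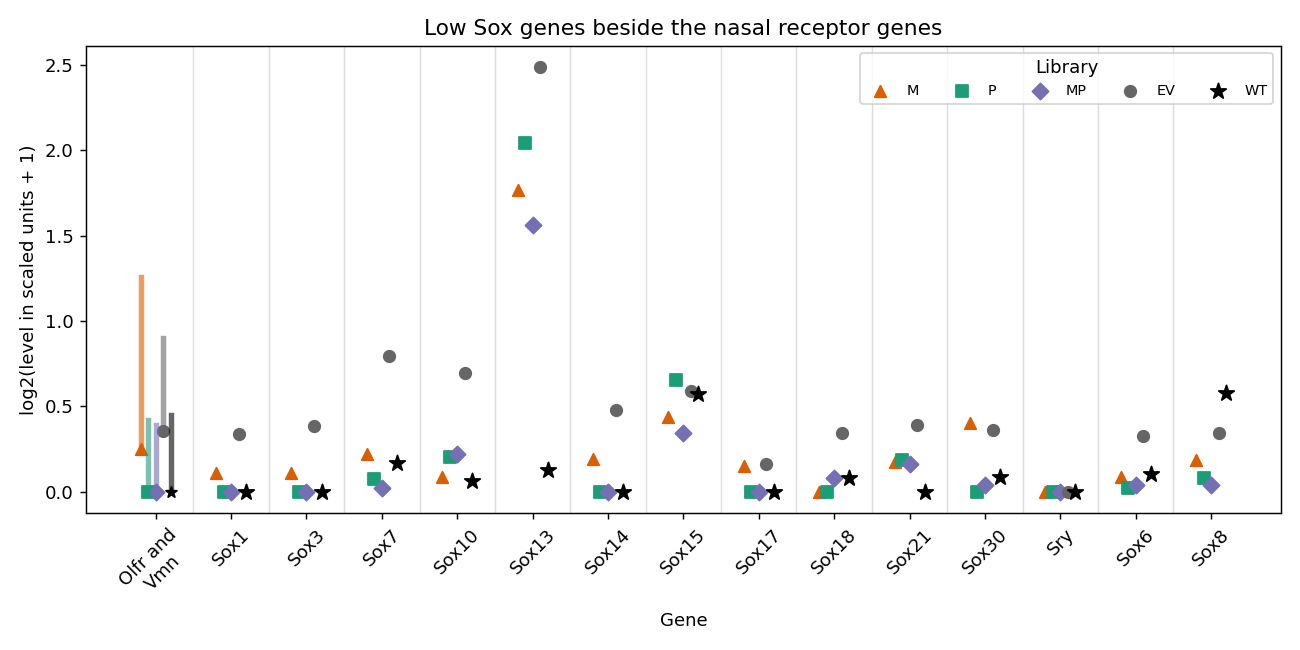
Levels of the 12 other Sox genes and of Sox6 and Sox8 as log2(scaled units + 1), with 1 symbol per library. At the left, symbols give the median of 1422 Olfr and Vmn genes and bars reach up to their 99th percentile. Sox13 lies above that mark in M, P, MP and EV and lies at 0.0919 units in WT.

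Markers of other cell types were low for the most part. Of the neural crest, Schwann cell and melanocyte markers with a locus of their own (11 of 12), between 2 and 3 reached 1 unit in each library, and their sum was 9.93 units in M, 5.27 in P, 6.64 in MP, 9.35 in EV and 8.41 in WT. Mitf, a factor of melanocytes that other cells use as well, was the highest of them in each library, between 1.99 units in P and 5.59 in M. Foxd3, which defines the early neural crest, was at or under 0.145 units in each library and listed at 0 in P, MP and WT. Among 9 endothelial markers Flt1, a VEGF receptor, reached 1 unit, at 3.26 in EV against 14.8 in WT, while Cdh5 and Pecam1, which define endothelium, were at or under 0.953 units. The summed endothelial level was 6.44 units in M, 6.08 in P, 5.53 in MP, 6.06 in EV and 16.3 in WT. Epithelial markers summed to 2.97 units in M, 2.18 in P, 2.55 in MP, 5.66 in EV and 2.78 in WT, over 10 of 11 genes. Skeletal muscle markers summed to between 1.96 units in M and 5.84 in P, and macrophage markers to between 2.23 in WT and 4.25 in M. Summed fibroblast markers stood at 163 units in M, 151 in P, 167 in MP, 172 in EV and 147 in WT. Of the 14 fibroblast markers 1 was at least 2-fold higher in EV over WT (Col3a1, a fibrillar collagen, log2 1.07) and 3 were lower. The lower ones were Pdgfra, a growth factor receptor of mesenchyme (2.56 units in EV against 11.8 in WT), Fap, a surface protease (0.134 against 3.50), and Lum, a small proteoglycan (0.237 against 1.92). Fap and Lum in EV were under the receptor genes' 99th percentile of 0.868 in EV and cannot be told from background. Among the macrophage markers Csf1r, a growth factor receptor, alone reached 1 unit, at 1.89 in EV against 1.17 in WT, while Ptprc, which defines blood cells, was at or under 0.362 units. Cdh5 stood at 0.953 units in EV against 0.0308 in WT, where it was under the receptor genes' 99th percentile of 0.369. The part of other cells in the Sox levels was not tested.

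**Figure D5:**
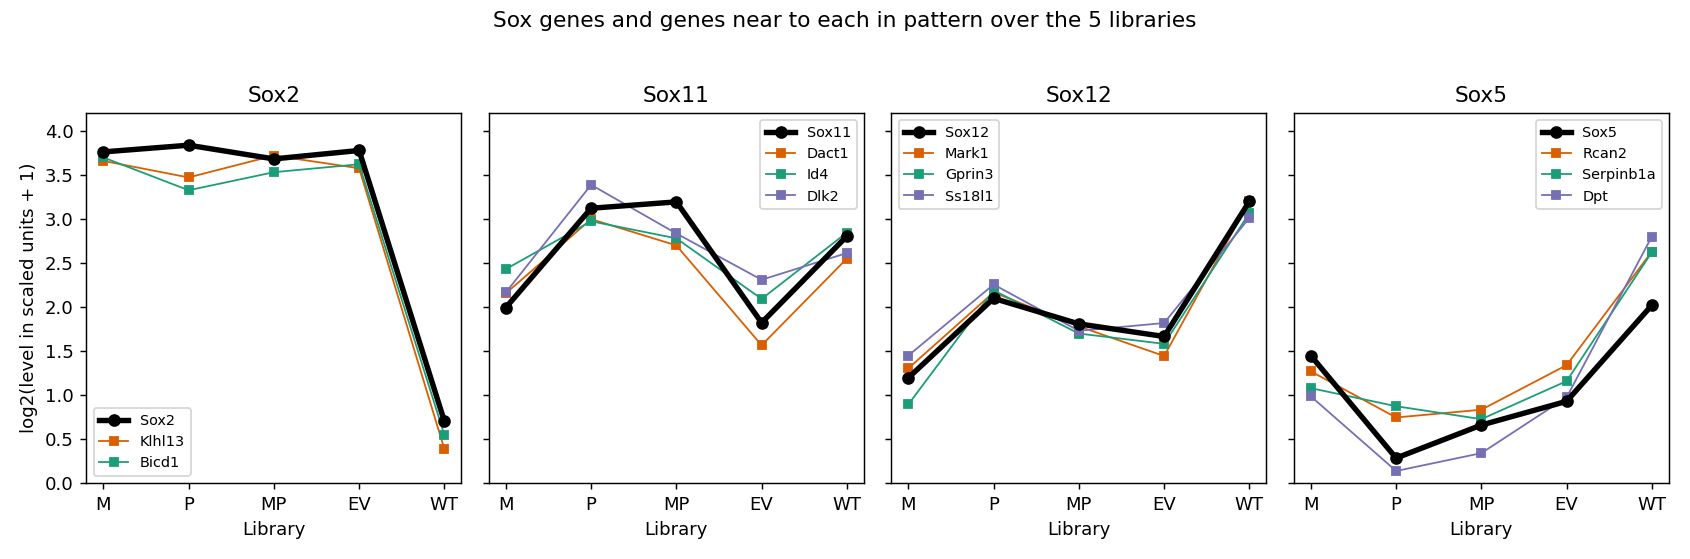
Levels over the 5 libraries, as log2(scaled units + 1), of Sox2, Sox11, Sox12 and Sox5 (black) and of genes near to each in pattern (2 for Sox2, 3 for each of the others). The Sox2 panel shows a plateau over M, P, MP and EV, where the scale is compressed, and a drop in WT. The Sox12 panel shows a peak in WT, and the Sox11 panel low points in M and EV.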

How the data were processed

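Illumina libraries were made from total RNA of 5 MEF cultures, per the labels' protocols. Each of the 4 tables the authors deposited holds EV and another library, with 61082 loci. TopHat, Cufflinks, Cuffdiff and mm9 are named in the submitters' processing notes, and nothing is stated there of versions, annotation, strand or library normalisation. The deposited unit is FPKM per locus, per the file headers. The p-value and q-value columns come from the authors' test between single libraries, with loci marked significant at q under 0.05.

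Of the loci, 37277 carried no symbol and 911 joined several genes. From the other 22894, each symbol took its locus of highest mean log2(FPKM + 1). EV values came from the M table, and the EV columns of the other tables differed from it by a factor each (1.10, 0.972 and 1.12 for P, MP and WT). Libraries were scaled to an upper quartile of 10 and ratios computed as log2((level + 1)/(level + 1)) for genes at 1 unit or more in 1 of the 2 libraries; 2-fold means 1 or more in size. No test across samples was made, because each group holds 1 library. Depth is unknown and intervals were not computed. The 99th percentile stood at only 1.78 (WT) to 2.12 (EV) upper quartiles, which compresses differences between well-expressed genes. The steps were tested on simulated data with Python 3.11.15, pandas 2.3.3 and NumPy 2.4.6; figures used matplotlib 3.10.9.

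The members, gene lists and choices were made with earlier results of these data known. Named genes were the 8 members, other Sox genes, up to 4 list genes with the largest ratios, cell type markers, and the 3 genes nearest to each member that varied, of which 1 is not reported here. List genes and markers singled out for low or high levels, Tead2, Col11a1, Nes and Sort1 among those named, and the joined Sox2ot locus were chosen after their values were seen. A planned comparison of the members' protein sequences was not made. Alternatives were a pseudocount of 0.1, a minimum of 5 units or none, median scaling, unscaled values and summed loci. Quantile normalisation, subtraction of the receptor genes' median and another library in place of EV were added after seeing the data.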

Additional observations from a re-analysis of the deposited data

Results flagged for a closer look

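The locus that joins Sox2ot and Mir1897 lay outside the single-gene measurement and stood at 1.23 scaled units in EV, against 0.140 in WT. Sox2 and Sox9 pointed in opposite directions in the pairs that carry the Prep1 label. Sox2 was at log2 0.0596 in P over EV and -0.08 in MP over M, and Sox9 at -0.21 and 0.22. With median scaling Sox2 was higher in both (0.10 and 0.27), so that its opposite directions are lost, while those of Sox9 remain (-0.18 and 0.56). These differences rest on 1 library each, were small, and were not tested.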

How the results depend on the processing

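On values as deposited, counts follow the shift of whole libraries: 8 Sox members were at least 2-fold higher in EV over WT and 5 in M over EV, 0 in P over EV, MP over EV and MP over M; 8 were lower in each of those last 3 and 0 in EV over WT. Genes 2-fold apart then numbered 20531 in EV over WT, 15485 in M over EV, 20828 in P over EV, 20826 in MP over EV and 18532 in MP over M. Sox11 turned to log2 -2.17 in P over EV and MP over EV and -3.83 in MP over M, and Sox12 and Sox5 to 1.83 and 1.82 in EV over WT. With a minimum of 5 units, genes 2-fold apart were 37 in M over EV, 99 in P over EV, 69 in MP over EV, 661 in EV over WT, 20 in MP over M and 66 in MP over P, because fewer genes are kept. With a pseudocount of 0.1 they were 386, 536, 555, 1746, 355 and 363 in the same order, and 1 member (Sox5) was lower in MP over M. Members lower in EV over WT were 1 (Sox12) with a minimum of 5 units, median scaling, quantile normalisation or M in place of EV. Apart from the unscaled values, 7 alternatives kept Sox2 between log2 3.04 and 4.13 in EV over WT, Sox12 between -1.86 and -1.23, and Sox11 between 1.19 and 1.56 in P over EV and between 1.32 and 1.77 in MP over EV. Of these, a minimum of 5 units, no minimum and summed loci left each member's ratio unchanged, so they are no check of it. The ranges come from a pseudocount of 0.1, median scaling, quantile normalisation and subtraction of the receptor genes' median. Sox11 in EV over WT ran between -1.21 and -0.66, on both sides of 2-fold. Median scaling moved the median of all kept genes in MP over EV, EV over WT, MP over M and MP over P to between 0.33 and 0.40, and small ratios of members in those comparisons can change sign with it. No paired analysis was possible because each group holds 1 library. Without depths or replicates, levels under the receptor genes' 99th percentile cannot be told from background.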
